A study of Saccharomyces cerevisiae with 9 samples.

Results

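The comparison set out below is between a budding yeast strain whose histone H2B cannot carry ubiquitin and a strain that cannot take the ubiquitin off through Ubp8. Its differences rest on 4 of the 9 microarrays of the series. The estimate of spread also draws on 2 arrays of a double mutant (Htb1_K123R;htb2_delta0;ubp8_delta0) against wild type. A further 3 arrays, of K123R against an htb2_delta0 strain, are only set beside the differences. The K123R strain, CY1272, carries Htb1_K123R, an H2B gene whose lysine at the ubiquitylation site is replaced by arginine, and htb2_delta0, a deletion of the second H2B gene. The ubp8 strain, BY10809, carries ubp8_delta0 and keeps both of its own H2B genes. Each was hybridised with wild-type RNA from BY4742 on 2 two-colour Agilent arrays, called biological replicates in the series design, with the mutant in the red dye (Cy5) on array 1 and in the green dye (Cy3) on array 2. A mutant-to-wild-type log2 ratio was taken for each gene on each array, and the difference is the K123R ratio minus the ubp8 ratio between arrays of the same number, so a positive difference means more RNA in the K123R strain, and a gene that fell was lower in K123R than in ubp8. K123R and ubp8 RNA were never on the same array, and the comparison runs through wild type. The K123R and ubp8 strains therefore differ in 3 named ways at once, the H2B residue, HTB2 and UBP8. All genes that could be fitted were described, 6233 of the 6256 on the array.

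Ubiquitin is attached to H2B in yeast by the conjugating enzyme Rad6 with the ligase Bre1, with help from the Paf1 elongation complex. Ubp8, a subunit of the SAGA coactivator, and Ubp10 remove it again. The mark is needed for the methylation of histone H3 by Set1 and Dot1 and is turned over during transcription, so a strain without the acceptor lysine and one without Ubp8 hold opposite ends of the same cycle.

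Array quality was even over the 4 arrays and the 2 arrays of the double mutant (Htb1_K123R;htb2_delta0;ubp8_delta0) that shared the estimate of spread. Median signal over background was 37.8 to 54.6 in green and 43.3 to 65.4 in red, and the share of gene spots clear of background in either colour was 99.7% to 99.9%. One slide held K123R array 2 with ubp8 array 1, and the other K123R and ubp8 arrays lay on slides shared with the double mutant. The title of K123R array 1 names htb1_delta0 where its strain label and array 2 name htb2_delta0, and the signals of HTB1 and HTB2 below match the strain label. The precision is limited by 2 arrays per strain.

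The altered loci separated the strains. HTB2, one of the 2 H2B genes, gave log2 ratios to wild type of -3.68 and -3.87 on the K123R arrays, against 0.52 and 0.34 on the ubp8 arrays. Its signal was 1040 and 846 intensity units in K123R and 16795 and 19116 in ubp8, so a signal above background remained in the strain labelled as deleted. UBP8 gave -0.28 and -0.12 in K123R, against -2.54 and -2.08 in ubp8. Both genes kept the strains apart on every array. The difference was -4.20 ± 0.08 (SE) for HTB2 and 2.11 ± 0.12 for UBP8 (limma, Benjamini-Hochberg adjusted p = 5.41e-06 and 0.000118). HTB1, the H2B gene that carries the substitution in CY1272, had 0.42 and -0.14 in K123R, against 0.49 and 0.02 in ubp8. Its difference of -0.12 did not pass the test (95% interval -0.26 to 0.03, adjusted p = 0.141).

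The highest differences of all belonged to 2 selectable marker genes. LEU2, an enzyme of leucine synthesis, had ratios of 4.12 and 3.27 in K123R, against 0.02 and -0.05 in ubp8, and a difference of 3.71 ± 0.23 (adjusted p = 0.000148). HIS3, an enzyme of histidine synthesis, had 3.87 and 2.47 in K123R, against -0.16 and -0.27 in ubp8, and a difference of 3.39 ± 0.27 (adjusted p = 0.000292). Both markers were near their wild-type level in ubp8 and far above it in K123R. BY4742 is known to lack working copies of both, and the LEU2 signal was 3003 and 3188 units in K123R and 129 and 127 in ubp8. URA3 and LYS2, which BY4742 is also known to lack, had differences of 0.04 and 0.02 that did not pass (adjusted p = 0.434 and 0.687). LEU2 stood at -0.05 in the double mutant and at -0.21 where K123R was set against the htb2_delta0 strain, while HIS3 stood at 2.86 and 3.63 in those comparisons. Genes beside the markers were also higher in K123R. NFS1, a neighbour of LEU2 that makes a cysteine desulfurase, differed by 1.00 ± 0.04, and MRM1, a neighbour of HIS3, by 0.57 ± 0.05. YOR203W, an open reading frame with no gene name between HIS3 and DED1, differed by 2.15 ± 0.04, while DED1, an RNA helicase, differed by 0.17 ± 0.04. The part of the markers in other differences was not tested.

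At an adjusted p under 0.05, 3529 of the 6233 genes differed between the strains (56.6%). Of these, 1809 were higher in K123R (29.0%) and 1720 were lower (27.6%), and the median difference over all genes was 0.01. Most of them were small. Differences of at least 0.5 on the log2 scale, a size chosen after values were seen, numbered 407 (6.53%), 181 higher in K123R (2.90%) and 226 lower (3.63%). Differences of at least 2-fold numbered 55 (0.882%), with 36 higher and 19 lower. The count at any size depended on the term for the array number, which carries the dye. Without it 515 of 6243 genes passed, 229 higher and 286 lower, and 54 of these were at least 2-fold. Group counts given below without the array-number term are to be read against these 229 and 286 genes, not against 29.0% and 27.6%. Without K123R array 1, 2347 genes passed and 64 of these were at least 2-fold.

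The plot of the array pairs sets the 2 pairs against each other. Across the 6204 genes with both pairs, the differences from the arrays numbered 1 and those numbered 2 had a Pearson correlation of 0.936 and a Spearman correlation of 0.913, given as a description since genes are not independent. Within the shared slide, where the dyes run opposite ways, all 407 genes of at least 0.5 kept their sign, though those 2 arrays were also part of the fit that chose the genes. The difference of the wild-type channels had an SD over genes of 0.160 and 0.143 in the pairs, against 0.363 and 0.373 for the mutant channels. Of the 407 genes, K123R lay farther from wild type in 316 and ubp8 in 91.

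**Figure D1:**
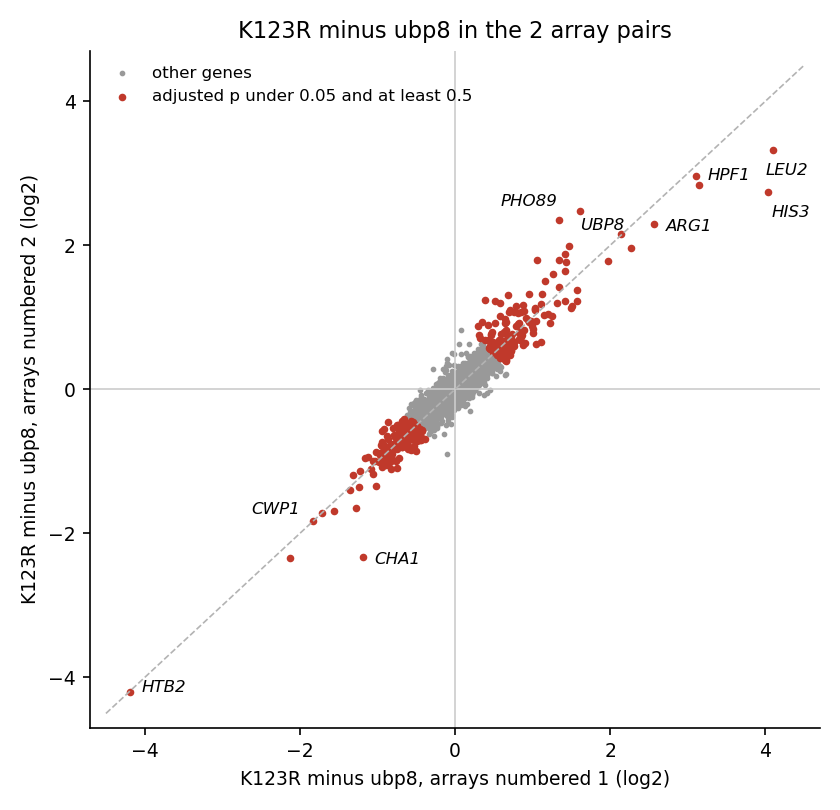
Each point is 1 gene, with the K123R minus ubp8 log2 difference from the arrays numbered 1 on the x axis and from the arrays numbered 2 on the y axis. Red points passed an adjusted p of 0.05 with a difference of at least 0.5, the dashed line marks equal values, and HTB2 lies at -4.20 and -4.21.

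Among named genes higher in K123R, the highest after the markers were 2 cell wall genes and an arginine gene, followed by UBP8 and a serine gene. HPF1, a cell wall mannoprotein, had ratios of 2.67 and 2.71 in K123R, against -0.43 and -0.26 in ubp8. CSS1, a relative of HPF1, had 2.50 and 2.66 in K123R, against -0.65 and -0.18 in ubp8. Both stood well over wild type in K123R and below it in ubp8, with differences of 3.03 ± 0.05 and 2.995 ± 0.07 (adjusted p = 5.41e-06 and 1.22e-05). Since HPF1 and CSS1 are alike in sequence, their probes may share signal. ARG1, argininosuccinate synthetase, had 2.51 and 2.13 in K123R, against -0.06 and -0.17 in ubp8. SER3, which opens serine synthesis, had 1.54 and 2.48 in K123R, against -0.07 and -0.005 in ubp8. These 2 genes sat at the wild-type level in ubp8, and their differences were 2.43 ± 0.07 and 2.05 ± 0.18 (adjusted p = 6.93e-05 and 0.000407). Below COS12, PHO89, GAP1 and DUR1,2, which are described with their groups, SPR28, a sporulation septin, had a difference of 1.56 ± 0.12, OPT2, of the oligopeptide transporter family, one of 1.43 ± 0.08, and SNZ1, a vitamin B6 synthesis gene, one of 1.43 ± 0.15.

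COS12, a member of the COS family of membrane proteins, was higher than wild type in both strains and more so in K123R. It had 3.23 and 2.87 in K123R, against 1.27 and 1.09 in ubp8, a difference of 1.87 ± 0.06 (adjusted p = 3.53e-05). CDA1, a chitin deacetylase of the spore wall, followed the same order with 2.26 and 1.84 in K123R, against 1.12 and 0.81 in ubp8, a difference of 1.09 ± 0.06 (adjusted p = 0.000118). In 2 genes, YFR057W and HXT14, the ubp8 signal was not well above background on either array, so only a bound could be set. K123R was at least 2.01-fold higher for YFR057W and at least 1.95-fold higher for HXT14, a hexose transporter family member (adjusted p = 0.000177 for both).

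The named genes lower in K123R were led, after HTB2, by CWP1, a cell wall mannoprotein. CWP1 had -1.29 and -1.78 in K123R, against 0.54 and 0.05 in ubp8, a difference of -1.83 ± 0.05 (adjusted p = 1.91e-05). EEB1, which makes ethyl esters of fatty acids, had -0.90 and -0.86 in K123R, against 0.81 and 0.86 in ubp8, a difference of -1.72 ± 0.04 (adjusted p = 6.97e-06). The strains lay about equally far from wild type on opposite sides for EEB1. DIC1, the mitochondrial dicarboxylate carrier, had -0.95 and -1.15 in K123R, against 0.60 and 0.53 in ubp8, a difference of -1.62 ± 0.04. CHA1, the serine and threonine deaminase, had -0.54 and -1.20 in K123R, against 0.65 and 1.12 in ubp8. Its difference of -1.76 ± 0.23 came from unlike pairs, -1.19 on the arrays numbered 1 and -2.32 on those numbered 2. PNS1, a choline transporter-like gene, was changed mainly in K123R, with -1.59 and -1.41, against -0.31 and 0.24 in ubp8. FCY21, a purine-cytosine permease family gene, was the reverse, with -0.06 and -0.19 in K123R, against 0.96 and 1.15 in ubp8. The rest of the 15 lowest ran from -1.38 for DSE1 to -0.97 for CTS1 and included GRE2, a methylglyoxal reductase, CIT2, peroxisomal citrate synthase, and PYC1, pyruvate carboxylase, at -1.12, -1.09 and -1.03. YOL014W, an open reading frame without a gene name, was chosen after its values were seen because only HTB2 was lower. It had -1.20 and -1.12 in K123R, against 0.93 and 1.22 in ubp8, a difference of -2.24 ± 0.09.

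**Figure D2:**
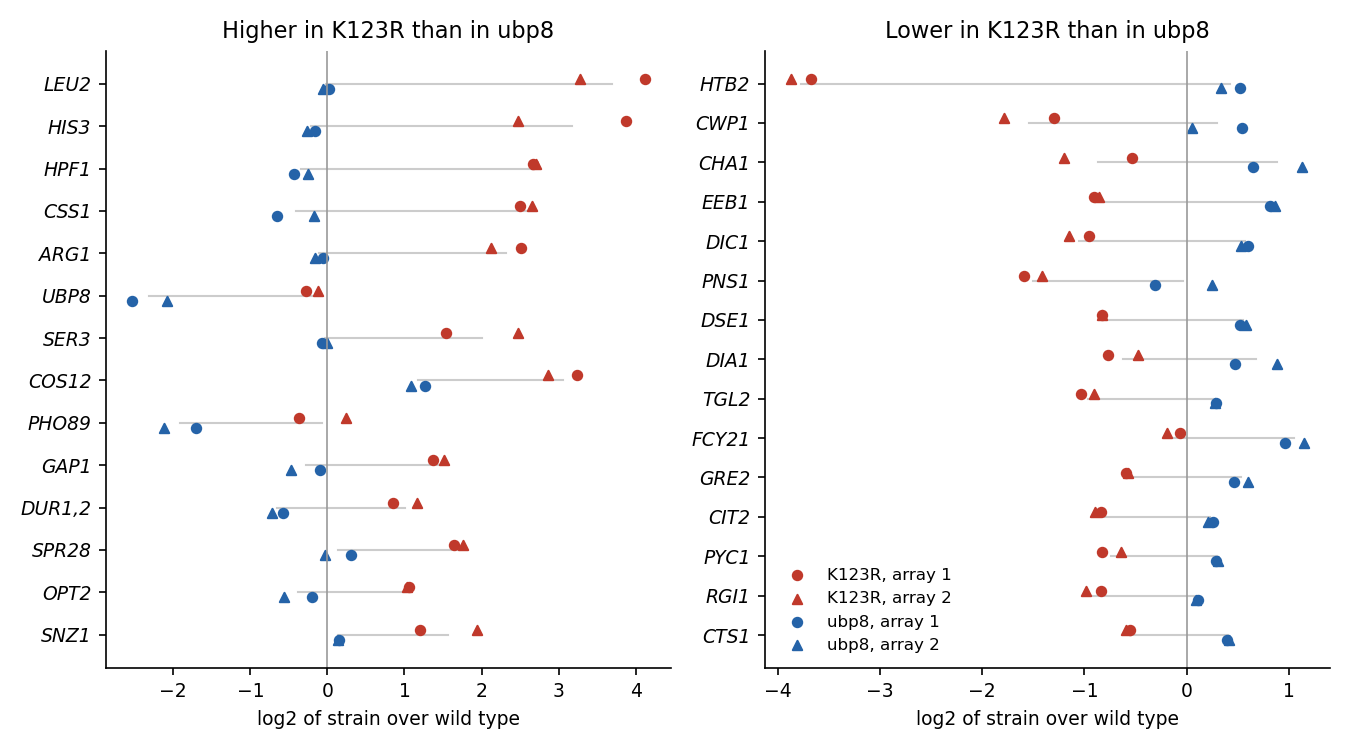
Log2 ratio of strain over wild type on each array for 14 of the named genes with the highest (left) and the 15 with the lowest (right) K123R minus ubp8 difference. Red is K123R and blue is ubp8, circles are array 1 and triangles array 2, and the grey line joins the strain means; COS12 is above wild type in both strains, while EEB1 is at -0.90 and -0.86 in K123R and at 0.81 and 0.86 in ubp8.

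Setting each strain's own ratios side by side shows which strain moved a gene. These ratios share the wild-type strain. In the blocked limma fit, 354 genes had a ratio of at least 0.5 and passed against wild type in K123R (5.68%), and 118 in ubp8 (1.89%). Besides ARG1 and SER3, PUL3, of the pulcherrimin transporter family, moved in K123R, with 1.37 and 1.14 in K123R, against -0.04 and -0.08 in ubp8. TPO2, a polyamine transporter, moved in ubp8, with -0.01 and 0.31 in K123R, against 0.94 and 1.04 in ubp8. Other genes moved alike. YAT1, a carnitine acetyltransferase, had 0.98 and 0.88 in K123R, against 0.88 and 0.89 in ubp8, and ZRT1, the high-affinity zinc transporter, had 0.81 and 1.09 in K123R, against 0.77 and 1.00 in ubp8. Their differences were 0.04 (95% interval -0.06 to 0.15) and 0.07 (-0.04 to 0.17). DHR2, a helicase of ribosome assembly, and GSC2, a glucan synthase subunit, differed by 0.08 (-0.03 to 0.18) and 0.09 (-0.07 to 0.25). GSY1, a glycogen synthase, was low in both, with -1.03 and -0.97 in K123R, against -0.97 and -0.49 in ubp8.

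**Figure D3:**
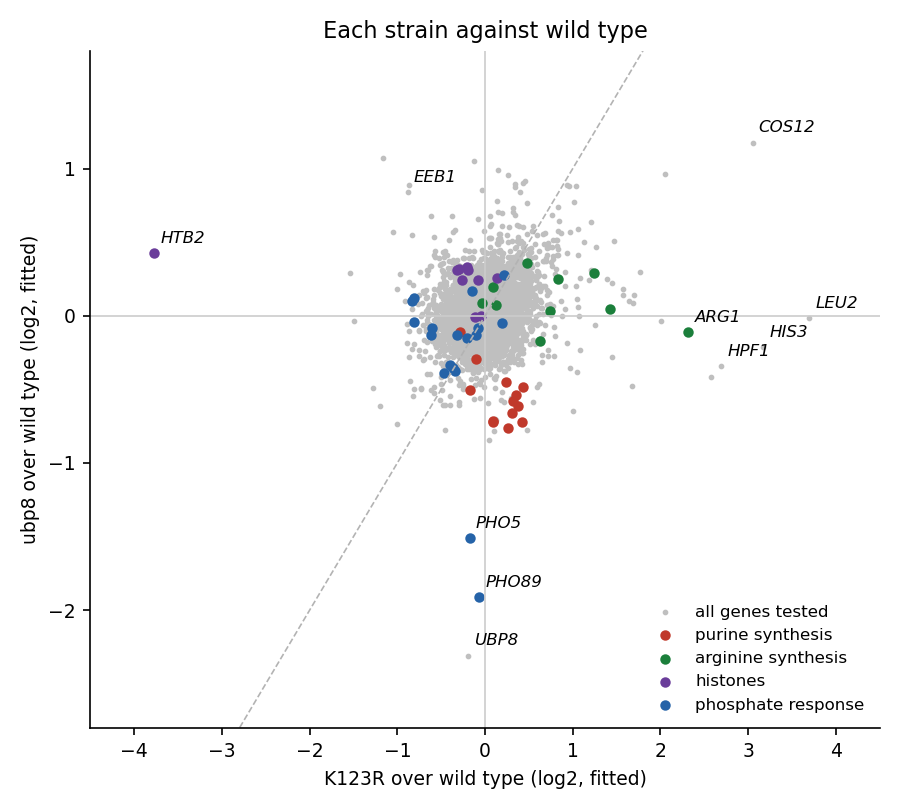
Each point is 1 gene, with the fitted log2 ratio to wild type in K123R on the x axis and in ubp8 on the y axis; the dashed line marks equal values. By their medians, purine synthesis genes lie right of and below the centre (0.26 and -0.58), arginine synthesis genes to the right (0.68 and 0.08) and histone genes to the left and above (-0.20 and 0.28), though ADE8, ADE12 and ADE16 lie left of 0 and HTB1 right of it, and PHO5 and PHO89 lie far down near 0 on the x axis.

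The histone genes were lower in K123R than in ubp8. Of the 10 tested, 7 passed and all 7 were lower in K123R, where 27.6% of all genes were, and the median difference was -0.50. HTB2 is among the 7, and its call was set in advance because the K123R strain lacks it. HHF1 and HHF2, which encode the same histone H4, both differed by -0.62, with standard errors of 0.08 and 0.05. The H4 gene HHF2 had -0.06 and -0.57 in K123R, against 0.61 and 0.01 in ubp8, so the arrays within a strain lay far apart while each pair kept the order. The H3 genes HHT1 and HHT2 differed by -0.50 and -0.51, and the H2A genes HTA1 and HTA2 by -0.33 and -0.54. HTA2 lies beside the deleted HTB2, and ECM15, the gene on its other side, differed by -0.34. HTZ1, the H2A variant, and HHO1, the linker histone, had differences of -0.10 and -0.04 that did not pass (adjusted p = 0.0583 and 0.453). Gene pairs that encode 1 histone may share probe signal. Only HTB2 of the 10 passed without the array-number term.

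The genes of the H2B ubiquitylation machinery differed little. Of 9 tested, 6 were higher in K123R (66.7%, against 29.0% of all genes) and 1 was lower, with a median of 0.18 and none past 0.5. Leaving out the array-number term left 1 of 10 higher. RAD6, the conjugating enzyme, had 0.40 and 0.36 in K123R, against 0.01 and -0.02 in ubp8, a difference of 0.39 ± 0.04 (adjusted p = 0.000419). BRE1, the ligase, differed by 0.22 ± 0.04, and BUR2, the cyclin of the Bur1 kinase, by 0.40 ± 0.05. Of 18 SAGA genes, 6 were higher (33.3%) and 4 lower (22.2%), near the 29.0% and 27.6% of all genes. The only one past 0.5 was UBP8 itself, which is deleted in ubp8 and counted among the 6. TAF5 and TRA1 were higher by 0.47 and 0.37, while SPT3 fell by 0.46. Of 10 genes for H3 methylation, 1 was higher (10%) and 3 were lower (30%), the second share being near that of all genes. Without the array-number term, 2 SAGA genes were higher and 1 lower, and no H3 methylation gene passed.

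Purine synthesis genes were higher in K123R as a group. Of the 13 tested, 12 passed as higher and 10 of them by at least 0.5, where 29.0% and 2.90% of all genes did, and the median difference was 0.88. ADE1 had 0.52 and 0.32 in K123R, against -0.58 and -0.87 in ubp8, a difference of 1.15 ± 0.05 (adjusted p = 6.76e-05). ADE17, of the last steps to IMP, had 0.27 and 0.25 in K123R, against -0.60 and -0.92 in ubp8. Its spots were saturated in the K123R channel on both K123R arrays, so its K123R ratios may be understated. SHM2, a serine hydroxymethyltransferase that feeds the pathway with one-carbon units, had 0.53 and 0.23 in K123R, against -0.15 and -1.08 in ubp8. The median ratio to wild type was 0.26 in K123R and -0.58 in ubp8, so the larger departure was in ubp8. ADE16, an isozyme of ADE17, went the other way, with a difference of -0.17 ± 0.04 (adjusted p = 0.0126). The group median was 0.68 in the pair numbered 1 and 1.07 in the pair numbered 2. Without the array-number term 5 of 13 passed, all as higher, where 229 of all 6243 genes did.

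Serine and glycine genes were higher in K123R for 7 of 12, where 29.0% of all genes were, and 1, CHA1, was lower. SER1 and SER2, which follow SER3 in serine synthesis, were higher by 0.61 ± 0.09 and 0.71 ± 0.05. GCV1 and GCV2, subunits of the glycine cleavage complex, were higher by 0.89 ± 0.14 and 0.81 ± 0.18. GCV1 had 0.02 and 0.07 in K123R, against -0.55 and -1.13 in ubp8, so its difference lay in ubp8. SER3 is set beside CHA1 because their products make and break down serine, and they moved in opposite directions between the strains. Leaving out the array-number term left 2 higher and 1 lower.

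Arginine synthesis genes were higher in K123R. Of 10 tested, 6 passed as higher, each by at least 0.5, and 2 as lower, with a median of 0.64. Over all genes 29.0% passed as higher, 2.90% by at least 0.5, and 27.6% as lower. ARG3, ornithine carbamoyltransferase, had 1.27 and 1.21 in K123R, against 0.34 and 0.24 in ubp8, a difference of 0.95 ± 0.06 (adjusted p = 0.000135). ARG4, ARG5,6 and ARG7 were higher by 0.80, 0.71 and 0.58. All of these were above wild type on both K123R arrays. CPA1, the small subunit of carbamoyl phosphate synthetase, had a difference of 0.12 that did not pass (adjusted p = 0.0571), and ARG8 and ORT1 differed by -0.11 and -0.12. The 6 higher genes also passed without the array-number term, where 6 of 10 were higher and none lower.

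Other amino acid genes went both ways. Of 32 tested, 16 were higher in K123R (50%, against 29.0% of all genes) and 9 lower (28.1%, against 27.6%), with a median of 0.16. Leaving out the array-number term left 6 higher and 2 lower. ASN1, an asparagine synthetase, had 0.60 and 0.97 in K123R, against -0.42 and -0.13 in ubp8, a difference of 1.06 ± 0.05 (adjusted p = 6.93e-05). HIS4 of histidine synthesis, TRP5 of tryptophan synthesis and ARO3 of the shared aromatic pathway were higher by 0.85, 0.75 and 0.60. The 9 lower genes all belonged to the branched-chain and lysine pathways, but ILV1 of the first was higher by 0.60, and ILV2, ILV6, LYS1 and LYS21 had differences from -0.06 to 0.12 that did not pass. LEU1, isopropylmalate isomerase, had -0.79 and -0.82 in K123R, against -0.04 and -0.33 in ubp8, a difference of -0.62 ± 0.09. ILV3, LEU4 and BAT1 differed by -0.39, -0.38 and -0.33, and LYS20 and LYS9 by -0.50 and -0.43. OAC1, the mitochondrial oxaloacetate carrier, fell by 0.95 ± 0.05. Where K123R was set against the htb2_delta0 strain, LEU1, BAT1 and OAC1 stood at 0.72, 0.64 and 0.11. LEU2 was at -0.21 there and far above wild type in the K123R arrays used here, and its part in the leucine genes was not tested.

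Sulfur genes were mostly higher in K123R, and nitrogen genes went both ways. Of 25 sulfur amino acid genes, 16 were higher (64%, against 29.0% of all genes) and 4 lower (16%), with a median of 0.25 against 0.01 over all genes. MET17, homocysteine synthase, had 0.59 and 0.50 in K123R, against -0.65 and -0.52 in ubp8, a difference of 1.13 ± 0.06 (adjusted p = 0.000122). MUP3, a methionine permease, was higher by 0.76 ± 0.05, while SAM3, an S-adenosylmethionine permease, fell by 0.46 ± 0.05. Of 23 genes for the use of nitrogen sources, 11 were higher (47.8%) and 5 lower (21.7%), against 29.0% and 27.6% of all genes. Their median was 0.11. GAP1, the general amino acid permease, had 1.37 and 1.52 in K123R, against -0.10 and -0.47 in ubp8, a difference of 1.73 ± 0.11 (adjusted p = 0.000177). DUR1,2, urea amidolyase, had 0.85 and 1.16 in K123R, against -0.58 and -0.72 in ubp8, and CAR1, arginase, was higher by 0.99 ± 0.06. UGA4, a transporter of gamma-aminobutyrate, fell by 0.46 ± 0.05 while UGA1, the transaminase for it, was higher by 0.61 ± 0.04. Without the array-number term, 2 sulfur genes were higher and 1 lower, and 4 nitrogen genes were higher and 1 lower. In that fit 229 of all 6243 genes were higher and 286 lower.

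Phosphate genes that passed split between the strains. By their median the 18 genes of the group were below wild type in both, at -0.34 in K123R and -0.13 in ubp8. Against wild type, 15 passed as lower and 1 as higher in K123R, with 10 lower and 4 higher in ubp8. PHO5, the secreted acid phosphatase, had -0.36 and 0.003 in K123R, against -1.52 and -1.50 in ubp8, a difference of 1.33 ± 0.08 (adjusted p = 0.000146). PHO89, a sodium-phosphate cotransporter, had -0.36 and 0.24 in K123R, against -1.71 and -2.12 in ubp8, a difference of 1.85 ± 0.21 (adjusted p = 0.000847). These 2 genes were low in ubp8 on both arrays, and they were the only 2 of 18 that passed as higher in K123R. Of the 7 that passed as lower, PHM8, a phosphatase, had -0.79 and -0.87 in K123R, against 0.12 and 0.07 in ubp8. SPL2, an inhibitor of low-affinity phosphate uptake, had -0.92 and -0.69 in K123R, against 0.02 and -0.11 in ubp8. Here K123R was the low strain. GPP2, a glycerol phosphate phosphatase, fell by 0.94 ± 0.05, and VTC3 and VTC2 of the polyphosphate polymerase complex had differences of -0.53 and -0.48. PHO84, the high-affinity transporter, fell by 0.32 ± 0.06. Over the group 11.1% were higher and 38.9% lower, against 29.0% and 27.6% of all genes, and without the array-number term 2 were higher and 5 lower. PHO81, the kinase inhibitor that turns the pathway on, had a difference of -0.06 (adjusted p = 0.315).

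Glucose transporter genes also split. HXT4 had 0.26 and 0.70 in K123R, against -1.05 and -0.50 in ubp8, a difference of 1.26 ± 0.04 (adjusted p = 5.46e-05). HXT6 and HXT7, high-affinity transporters so alike that their probes may share signal, were higher by 0.88 ± 0.10 and 0.83 ± 0.10, with ubp8 low on both arrays. HXT1, the low-affinity transporter, fell by 0.74 ± 0.09, with -0.12 and -0.04 in K123R, against 0.80 and 0.52 in ubp8. So HXT4, HXT6 and HXT7 were low and HXT1 was high in ubp8. GLK1, glucokinase, fell by 0.52 ± 0.06. Of 17 genes, 7 were higher (41.2%) and 6 lower (35.3%), against 29.0% and 27.6% of all genes, and without the array-number term 3 were higher and 2 lower. In the K123R against htb2_delta0 arrays, HXT4 stood at -0.65 and HXT6 at -0.44.

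**Figure D4:**
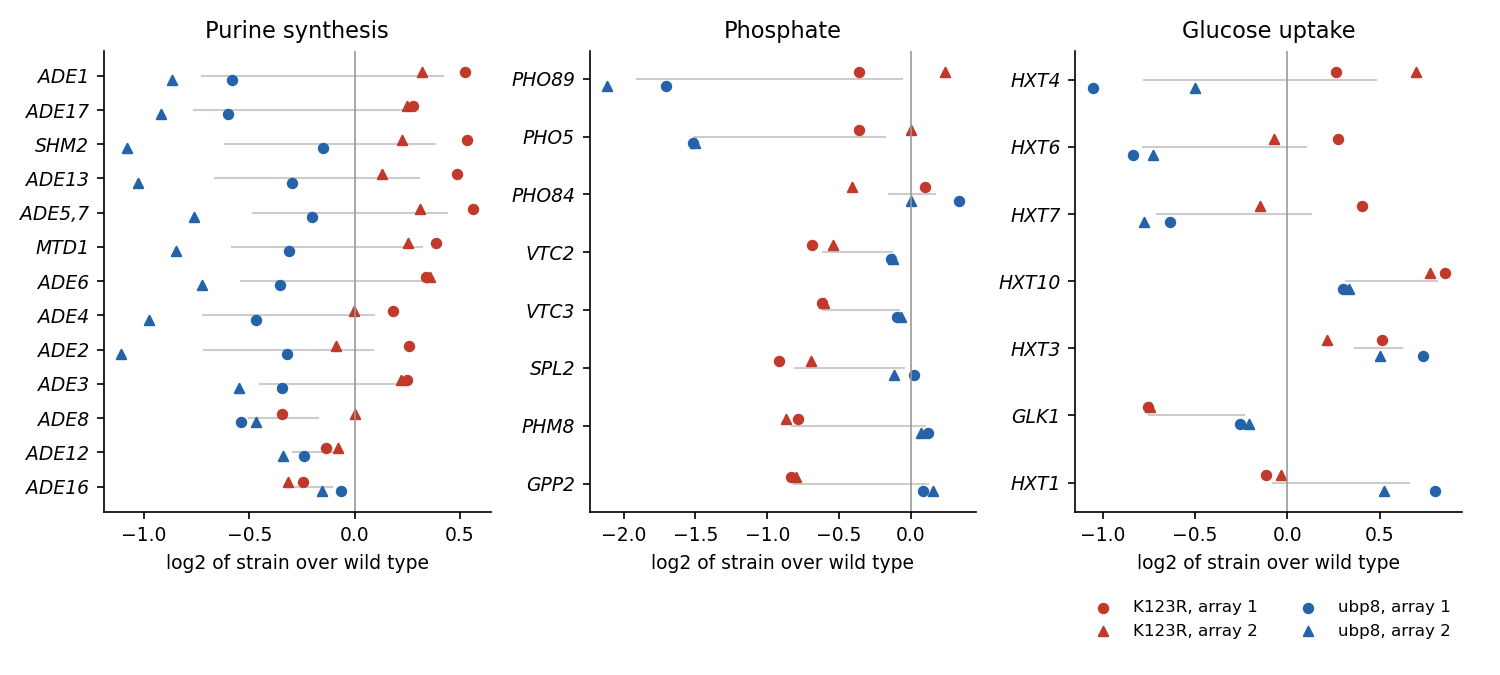
Log2 ratio of strain over wild type on each array for purine synthesis genes, the 8 phosphate genes described as passing, and 7 glucose uptake genes. Red is K123R and blue is ubp8, circles are array 1 and triangles array 2, and the grey line joins the strain means. The lower strain is ubp8 for the ADE genes other than ADE16 and for PHO89, PHO5, HXT4, HXT6 and HXT7. It is K123R for VTC2, VTC3, SPL2, PHM8, GPP2 and GLK1, and for ADE16 (fitted -0.28 in K123R and -0.11 in ubp8).

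Of 19 genes of mitosis and cell separation, 10 were higher in K123R (52.6%) and 5 lower (26.3%), against 29.0% and 27.6% of all genes. Among the 5 lower were 4 linked to the release of daughter cells, DSE1, CTS1, DSE2 and EGT2, which were grouped after their values were seen. In whole cultures, fewer cells at a stage and less RNA per cell cannot be told apart. DSE1, a daughter-cell gene, had -0.83 and -0.83 in K123R, against 0.52 and 0.58 in ubp8, a difference of -1.38 ± 0.04 (adjusted p = 2.14e-05). CTS1, the chitinase that parts mother and daughter, had -0.55 and -0.59 in K123R, against 0.39 and 0.41 in ubp8, and DSE2, a daughter-side glucanase-like protein, fell by 0.84 ± 0.04. The strains lay on opposite sides of wild type for all 3. EGT2 fell by 0.66 ± 0.10. SWI5, a transcription factor of late mitosis, was higher by 0.28 ± 0.04. The other lower gene was the cyclin CLB1 at -0.52 ± 0.04, and no gene of the group was higher by 0.5. In the fit without the array-number term, 2 were higher and 3 lower.

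Genes specific to 1 mating type were lower in K123R or did not pass. BY4742 is known as an alpha strain, and all 4 alpha-specific genes were lower in K123R, where 27.6% of all genes were, with a median of -0.67. In the fit without the array-number term, 2 of the 4 were lower. STE3, the a-factor receptor, had -0.99 and -0.75 in K123R, against -0.11 and -0.11 in ubp8, and SAG1, the alpha-agglutinin, fell by 0.66 ± 0.05. MF(ALPHA)1, the pheromone precursor, fell by 0.68 ± 0.06, with -0.09 and -0.36 in K123R, against 0.60 and 0.30 in ubp8. Of 7 a-specific genes, 2 were lower, BAR1 with a difference of -0.35 and STE2 with -0.13, and none higher, with a median of -0.01. The difference between the classes was not tested. Of 17 pheromone response genes, 6 were higher (35.3%) and 7 lower (41.2%), against 29.0% and 27.6% of all genes. Without the array-number term, 1 was higher and 2 were lower. PRM6 differed by 0.75 ± 0.05 and SST2, the regulator that ends the signal, by -0.65 ± 0.04.

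Growth-related groups shifted by small amounts. Of 93 ribosome assembly genes, 57 were higher in K123R and 6 lower, where 29.0% of all genes were higher, and none reached 0.5. Their median ratio to wild type was 0.37 in K123R and 0.18 in ubp8, for a median difference of 0.17, led by NOP1, which methylates ribosomal RNA, at 0.49 ± 0.06. Of 20 tRNA synthetase genes, 15 were higher and 1 lower with a median of 0.28, and of 31 RNA polymerase subunit genes 17 were higher and 4 lower with a median of 0.20. Of 33 proteasome genes, 20 were higher and 3 lower with a median of 0.15, the highest being RPT4 at 0.44 ± 0.03. The ribosomal proteins did not share this. Of 81 large-subunit genes 3 were higher and 3 lower, of 56 small-subunit genes 3 were higher and 4 lower, and both medians were 0.01. Without the array-number term 4 ribosome assembly genes, 2 polymerase genes, 1 proteasome gene and no tRNA synthetase gene passed, all as higher. In that fit 229 of all 6243 genes were higher.

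Nuclear genes of oxidative phosphorylation were higher in K123R for 24 of 36 (66.7%) and lower for 3 (8.33%), against 29.0% and 27.6% of all genes, with a median of 0.28. ATP14, a subunit of the ATP synthase, had 0.47 and 0.38 in K123R, against -0.29 and -0.22 in ubp8, a difference of 0.68 ± 0.05 (adjusted p = 0.000208). QCR2, a subunit of the cytochrome bc1 complex, was higher by 0.65 ± 0.03. COX5B, the cytochrome oxidase subunit of low oxygen, went the other way, with a difference of -0.79 ± 0.04. Among 23 mitochondrial carriers, 5 were higher (21.7%) and 11 lower (47.8%). MIR1, the phosphate carrier, was higher by 0.92 ± 0.05, and AAC3, the ADP/ATP carrier of low oxygen, fell by 0.59 ± 0.04. Without the array-number term, 4 oxidative phosphorylation genes were higher and 1 lower, and 1 carrier was higher and 3 lower.

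By their median, stress response genes were lower than wild type in both strains, at -0.44 in K123R and -0.22 in ubp8. Against wild type, 27 of 36 passed as lower and 5 as higher in K123R, with 24 lower and 6 higher in ubp8. Between the strains, 11 of 36 were higher in K123R (30.6%, near the 29.0% of all genes) and 16 lower (44.4%, against 27.6%), with a median of -0.14. In the fit without the array-number term, 1 was higher and 6 lower. HSP26, a small heat shock protein, had -0.13 and -0.55 in K123R, against 0.62 and 0.55 in ubp8, a difference of -0.93 ± 0.08 (adjusted p = 0.00037). PGM2, phosphoglucomutase, had -1.39 and -1.18 in K123R, against -0.63 and -0.35 in ubp8, and CTT1, the cytosolic catalase, fell by 0.71 ± 0.07. SPI1, a cell wall protein, fell by 0.97 ± 0.07. HSP78, a mitochondrial chaperone, was the one gene of the group higher by at least 0.5, at 0.80 ± 0.04.

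Ergosterol and iron genes were mostly lower in K123R. Of 23 ergosterol synthesis genes, 14 were lower (60.9%, against 27.6% of all genes) and 1 higher, with a median of -0.17. ERG26 had -0.41 and -0.43 in K123R, against 0.29 and 0.35 in ubp8, a difference of -0.74 ± 0.05 (adjusted p = 0.000153). ERG8 and ERG5 differed by -0.54 and -0.52, while ERG13 was higher by 0.24. Of 24 iron genes, 13 were lower (54.2%) and 6 higher (25%, against 29.0% of all genes), with a median of -0.16. TIS11, which destabilises mRNAs when iron is scarce, differed by -0.72 ± 0.07 and FET3, the multicopper oxidase of iron uptake, by -0.65 ± 0.04. Without the array-number term, 4 ergosterol genes and 2 iron genes were lower and none higher.

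**Figure D5:**
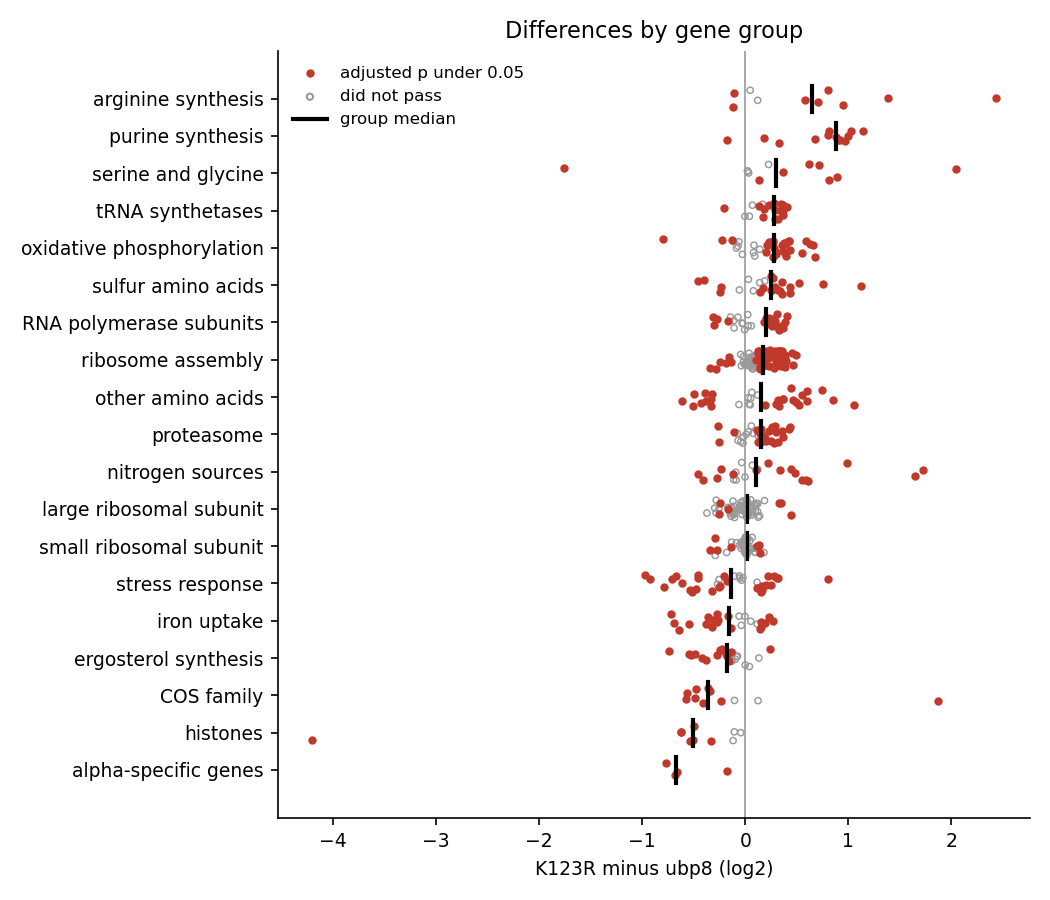
K123R minus ubp8 log2 difference of each tested member of 19 gene groups; filled red points passed an adjusted p of 0.05, open points did not, and the black bar is the group median. Arginine and purine synthesis have medians of 0.64 and 0.88, histones and alpha-specific genes of -0.50 and -0.67, and both groups of ribosomal proteins of 0.01.

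COS genes, which lie near chromosome ends, were lower in K123R for 8 of 11, where 27.6% of all genes were, with a median of -0.36, while COS12 was higher. In the fit without the array-number term, 3 were lower. COS8 had 0.05 and 0.24 in K123R, against 0.56 and 0.85 in ubp8, and COS7 fell by 0.57 ± 0.03. Members of the family are alike in sequence and may share probe signal. The 10 outermost protein-coding genes of each chromosome arm, a list added after values were seen, were taken with no gene family left out. They held 91 higher (30.4%) and 101 lower (33.8%) of 299, with a median of 0.01 as over all genes.

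Because the K123R strain also lacks HTB2, its values against the htb2_delta0 strain BY13026 are set beside the differences. Those 3 arrays were of another array platform, with 10789 spots against 10807 on the arrays against wild type. They were averaged with both dye orientations given equal weight, so array 2, the only one with K123R in Cy5, weighed as much as arrays 1 and 3 together. Single arrays could lie apart. On arrays 1, 2 and 3, LEU2 had -0.54, 0.14 and -0.56 and ADE17 had 0.71, -0.03 and 0.52, while HPF1 had 2.75, 2.90 and 2.47. The later software version used for them marked 18.8% to 19.0% of spots as outliers, against 0.76% to 3.62% on the arrays against wild type. HPF1, CSS1 and COS12 stood at 2.75, 2.83 and 2.53 there, and GAP1 at 1.22. CWP1, PNS1 and TGL2, a lipase, stood at -1.64, -1.47 and -1.27. These 7 genes kept the sign of their K123R minus ubp8 difference, and they were chosen after their values were seen. ADE1 and ADE17 stood at 0.75 and 0.29, and DSE1 and CTS1 at -0.67 and -0.80. CHA1 and FCY21, lower against ubp8, stood at 0.19 and 0.67. LEU2 stood at -0.21 on those 3 arrays and at 3.70 over wild type in K123R, and the labels do not say which strains carry it.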

How the data were processed

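The authors deposited Agilent Feature Extraction scanner files with red and green spot intensity (version 7.5.1 per the file headers, 8.5.1.1 for the K123R against htb2_delta0 arrays) and a series table of log10 ratios, equal to mutant over the other strain in the scanner files' processed signals. From the intensities, limma 3.58.1 in R 4.3.3 applied normexp with an offset of 50 and loess within each array. Control and outlier spots were left out, spots of a gene were averaged, and genes well above background on at least 3 of 6 arrays were kept. A mean per strain and the array number, which the labels tie to the dye, were fitted to the 6 arrays against wild type, leaving K123R minus ubp8 as the contrast. P-values were Benjamini-Hochberg adjusted over all genes.

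Arrays were paired by number: deviations of same-numbered arrays from their strain means correlated at 0.886 between K123R and ubp8, and at 0.865 and 0.867 with the double mutant. Since the number is also the dye orientation, a shared dye effect and a pairing of the samples cannot be told apart from these values. Errors are standard errors of the fit. Genes and gene groups were chosen with earlier results of these data known. Named were HTB1, HTB2, UBP8, the markers, the 15 highest and 15 lowest named genes with 1 sign in both pairs, up to 4 genes of lowest p per group with 3 or more passing, and 8 per pattern of strain ratios; genes named beyond this were chosen after their values were seen, and a few genes are not reported here. Gene names came from the array files and RefSeq, which matched 5756 genes, and no genome build was used. Alternatives covered the dye term, background correction, scaling, filters, slides and left-out arrays. The fit was tested on simulated data built with the same array-number term, so that test cannot show whether the term is right for these arrays.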

Additional observations from a re-analysis of the deposited data

How the results depend on the processing

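The call of a gene of any size depended on how the dye was modelled. With the array number as the block the 3 counts were 3529 at any size, 407 of at least 0.5 and 55 of at least 2-fold. With no replicate block, so with the pairing by array number left out, they were 515, 294 and 54. Slide in place of the array number gave 1674, 636 and 64, and mutant signals alone gave 1749, 579 and 74. Agilent processed signals and the deposited values gave 88 and 89 genes of at least 2-fold, where median centring in place of loess gave 63, and the cause was not tested. Both kept the other counts within 1.5 times. Over the fits without 1 array each, the counts ran from 2347 to 3639, from 403 to 427 and from 53 to 69. The 2347 came without K123R array 1, and the 403 and 53 came without double mutant array 1. The other settings kept all 3 counts within 1.5 times. Of 212 genes chosen for naming that passed, 115 still passed with no replicate block, with none reversed, and 185 with mutant signals alone, with none reversed. With slide in place of the array number, OPI1, DIN7 and SPS19 reversed to -0.28, -0.029 and -0.051, none past the test there, and the cause was not tested. Sign changes in genes that had not passed were all small. These were LYS2 at -0.0014 with processed and with deposited signals, URA3, ZRT1 and HTZ1 at -0.078, -0.075 and 0.025 with mutant signals alone, HHO1 at 0.020 with median centring, and PHO81 at 0.0093 with slide in place of the array number. Without 1 array of either strain in turn, LYS2 ran from -0.0047 to 0.044, YAT1 from -0.0059 to 0.095, GSC2 from -0.011 to 0.20, PHO81 from -0.13 to 0.0084 and HHO1 from -0.093 to 0.0079. Dim signal set a bound in place of a fold for YFR057W and HXT14.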

Other observations

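Sporulation genes, of which SPR28 and CDA1 are given above, went both ways between the strains and were above wild type in both by their median, 0.24 in K123R and 0.28 in ubp8. Of 27, 9 were higher in K123R (33.3%, against 29.0% of all genes) and 10 lower (37%, against 27.6%), and without the array-number term 2 were higher and 1 lower. NDT80, the activator of middle sporulation genes, had -0.20 and -0.53 in K123R, against 0.72 and 0.42 in ubp8, a difference of -0.94 ± 0.04 (limma adjusted p = 6.22e-05). HOP1, a protein of meiotic chromosome axes, fell by 0.42 ± 0.04, while SPS4 was higher by 0.46 ± 0.04. Of 13 copper and zinc genes, 3 were higher in K123R (23.1%) and 6 lower (46.2%), against 29.0% and 27.6% of all genes. In the fit without the array-number term, 1 was higher and 0 were lower. RSC30, the gene beside the CUP1 repeat, had 0.38 and 0.50 in K123R, against 0.85 and 0.95 in ubp8, and the metallothionein gene CUP1-1 differed by -0.55 ± 0.13. ZRT3, which exports zinc from the vacuole, was higher by 0.65 ± 0.04, while ZRT2, a zinc transporter, and ADH4, an alcohol dehydrogenase, had differences of -0.43 and -0.28.

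Fatty acid oxidation genes also divided. POT1, the peroxisomal thiolase, had 1.20 and 0.90 in K123R, against 0.21 and 0.02 in ubp8, a difference of 0.93 ± 0.06, and MLS1, malate synthase, was higher by 0.71 ± 0.09. ECI1, a peroxisomal isomerase, had -0.27 and -0.36 in K123R, against 0.43 and 0.33 in ubp8, a difference of -0.70 ± 0.04. Of 19 genes in this group, 9 were higher in K123R (47.4%) and 4 lower (21.1%), against 29.0% and 27.6% of all genes. Without the array-number term, 3 were higher and 1 was lower.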
